A study of Mus musculus with 8 samples.

Results

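Paired SIRP and PIR immune receptors were followed in MC38 tumors through 7 genes: *Pirb*, *Lilrb4*, *Sirpa*, *Sirpb1a*, *Sirpb1b*, *Sirpb1c* and *Gm5150*. These are 7 of the 24787 genes listed in the count tables, and they were chosen by name as receptors of both families, with earlier results of these data known, including a lean of *Sirpb1c* and *Gm5150* toward free R848. Tumors grown from MC38, a mouse colon carcinoma line, under the skin of female C57BL/6 mice were taken 24 h after injection, with medium R848-BPD given to 2 mice, free R848 to 3 and saline to 3. R848 (resiquimod) is a small-molecule Toll-like receptor agonist, and the R848-BPD is a bottlebrush polymer prodrug from which R848 is released by a linker of medium rate. All mice carried the same tumor, no gene was altered and no dose is given in the labels. Dissociated tumors were split into CD45+ and CD45- cells, which were loaded onto Seq-Well arrays with the CD45+ cells in large excess, so the cell makeup of each library was set in part by this loading. Each library is 1 tumor.

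Paired receptors are families in which near-identical ectodomains are joined to tails of opposite function. In myeloid cells, inhibitory members carry tyrosine motifs in the cytoplasmic tail that recruit phosphatases such as the one encoded by *Ptpn6*, and activating members have short tails and signal through adaptors such as *Tyrobp* (DAP12) or *Fcer1g*. *Sirpa* encodes the inhibitory receptor for CD47, which restrains phagocytosis. *Sirpb1a*, *Sirpb1b* and *Sirpb1c* encode SIRPβ-type members that lack the inhibitory tail. *Gm5150* is a predicted gene that lies beside them. It is grouped with the SIRPβ-type genes here by its position, and its tail was not examined. *Pirb* encodes an inhibitory receptor for MHC class I, and *Lilrb4* (gp49B) another inhibitory receptor of the same immunoglobulin-like group.

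The SIRPβ-type genes form a cluster on mouse chromosome 3. In the GENCODE vM21 annotation of GRCm38, *Sirpb1a* (ENSMUSG00000095788.6) runs on the minus strand from position 15371653 to 15426520, *Sirpb1b* from 15495751 to 15575065, *Sirpb1c* from 15795145 to 15848528 and *Gm5150* from 15946870 to 16006437, a span of 635 kb in all. *Sirpa* lies on chromosome 2 (129592835 to 129632228), *Pirb* on chromosome 7 (3711409 to 3720391) and *Lilrb4*, which this annotation names *Lilrb4a*, on chromosome 10 (51490956 to 51496611). The 4 chromosome 3 genes share sequence just before their annotated starts, and the stretch is shown because their values below moved in the same direction. It comes from RefSeq (GRCm38.p6), reads 5′ to 3′ on the gene strand, and ends at the base before the vM21 start in each gene. Capitals mark the bases at which the 4 genes are not all alike. For *Gm5150* the stretch begins at the edge of the window used.
Sirpb1a: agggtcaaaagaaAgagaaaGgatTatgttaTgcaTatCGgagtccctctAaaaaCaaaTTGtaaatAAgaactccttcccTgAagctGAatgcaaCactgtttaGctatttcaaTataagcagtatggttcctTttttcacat
Sirpb1b: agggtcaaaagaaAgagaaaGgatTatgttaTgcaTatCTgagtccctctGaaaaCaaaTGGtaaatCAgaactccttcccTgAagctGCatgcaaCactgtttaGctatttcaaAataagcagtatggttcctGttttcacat
Sirpb1c: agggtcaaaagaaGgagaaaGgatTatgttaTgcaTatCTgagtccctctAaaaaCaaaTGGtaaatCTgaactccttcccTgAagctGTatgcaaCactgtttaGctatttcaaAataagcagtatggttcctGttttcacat
Gm5150: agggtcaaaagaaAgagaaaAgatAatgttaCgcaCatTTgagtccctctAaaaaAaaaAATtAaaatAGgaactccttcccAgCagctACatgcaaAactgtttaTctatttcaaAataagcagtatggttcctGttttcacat

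Of 145 aligned positions, 122 (84.1%) were identical in all 4 genes. Pairs of genes were 86.2 to 97.2% identical, highest for *Sirpb1b* with *Sirpb1c* (97.2%) and lowest for *Sirpb1a* with *Gm5150* (86.2%). In the full 300-base RefSeq windows, searched on both strands, the letters GGAAGT occurred once in each of the 4 genes and once in *Pirb*, and in 23.8% of all 32817 windows. The letters GAAANNGAAA occurred once in *Sirpb1a*, *Sirpb1b* and *Gm5150*, in neither *Sirpb1c* nor *Pirb*, and in 3.43% of all windows. No window of the 5 genes held the NF-kB consensus, which 8.46% of all windows held. RefSeq windows for *Sirpa* and *Lilrb4* were not used here.

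Their transcripts are also alike where the reads fall. Of all 50-base windows in the last 500 bases of the vM21 transcripts, 43.3% of those of *Sirpb1a*, 57.4% of *Sirpb1b* and 45% of *Sirpb1c* occurred in another gene, mostly in one another. For *Lilrb4* the share was 57.5%, with *Gm49339* and *Lilr4b* (*Gp49a* in the tables), and for *Pirb* 14.5%, with *Pira*-type genes. It was 0% for *Sirpa* and *Gm5150*. How the authors' counting treated reads that fit several genes is not given in the sources used here, so the split among *Sirpb1a*, *Sirpb1b* and *Sirpb1c*, and between *Lilrb4* and *Gp49a*, is uncertain.

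The 8 tables held 10791 barcodes, of which 9886 cells passed the study's limits, 892 to 1443 per tumor, with 5867590 to 12422614 UMIs per tumor and medians of 3247 to 6928 UMIs per cell. Cells were placed in classes by marker genes that include no member, since no annotation was used here, and rebuilt classes may differ from those of the study. The monocyte/macrophage-like class held 5257 cells (484 to 925 per tumor), of which 334 (6.35%) lay near the monocyte-to-macrophage boundary. Macrophage-like cells numbered 4033 and monocyte-like cells 1224. In saline replicate 2 only 38 of 925 cells were monocyte-like. The same cluster held the most monocyte-like cells of saline and of free R848 tumors (51.0 and 42.6% of them), whereas 52.2% of those of medium R848-BPD tumors lay in another cluster, which also held 27.7% of the macrophage-like cells of that treatment. T-cell markers summed to at most 15.4 CPM (counts scaled to the library total) and NK-cell markers to at most 16.1 CPM in the macrophage-like sums of any tumor, against 18764 CPM or more for macrophage markers. A total of 23 barcodes were found in more than 1 library, and 59 kept cells carried one. Without them no call of a member changed.

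Members were read where they are expressed, as UMI counts summed per tumor and class. Levels that compare classes are plain CPM of each sum, and the values by treatment further on are CPM after TMM scaling. A UMI count at the 3′ end does not grow with transcript length, so levels of different genes are set side by side on this scale. All 7 genes were detected above the level in MC38-like cells, whose UMIs give the background of free RNA. *Sirpa* was at 636 ± 130 CPM in macrophage-like cells (SD over 8 tumors) and 8.32 ± 3.53 CPM in MC38-like cells. *Pirb* was at 420 ± 247 CPM in macrophage-like and 5.74 ± 2.87 CPM in MC38-like cells. *Lilrb4* was at 355 ± 95.1 and 5.72 ± 2.63 CPM in the same classes. The SIRPβ-type genes were lower, from 64.5 ± 27.0 CPM for *Sirpb1c* down to 31.6 ± 15.4 for *Sirpb1a*, 25.8 ± 14.9 for *Gm5150* and 19.0 ± 7.12 for *Sirpb1b*, and each stayed under 1 CPM in MC38-like cells on average. These means pool treatments, and the order differed between them on the TMM-scaled CPM of macrophage-like cells. With saline, *Lilrb4* (387 ± 141, n = 3) lay above *Pirb* (212 ± 35.9) by little more than its SD, and the tumors of *Sirpb1a*, *Gm5150* and *Sirpb1b* overlapped. With medium R848-BPD (n = 2), *Pirb* (832 ± 111) lay above *Sirpa* (472 ± 70.2) and *Lilrb4* (292 ± 25.1). *Sirpb1a* (50.6 ± 3.59) and *Gm5150* (48.5 ± 2.73) then overlapped and both lay above *Sirpb1b* (28.8 ± 2.27). The heat map shows levels pooled over treatments for 10 classes.

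**Figure D1:**
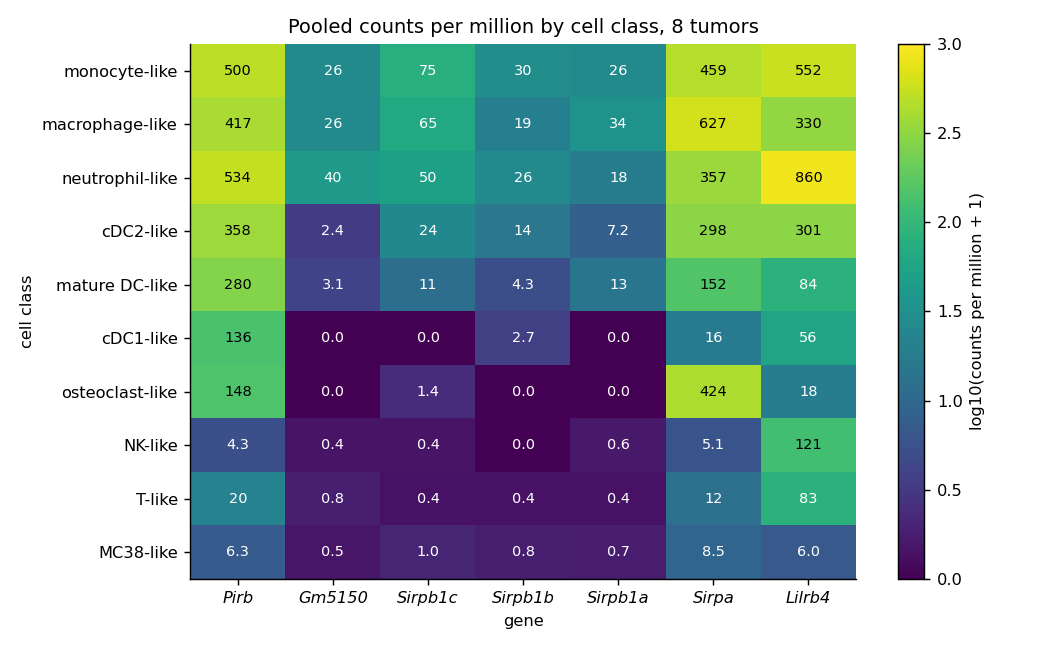
Pooled CPM of each gene (columns) in each cell class (rows), all 8 tumors summed; color is log10 of the CPM plus 1 and the printed number is the CPM. The SIRPβ-type genes are read mainly in the monocyte-like, macrophage-like and neutrophil-like rows, *Lilrb4* is also read in NK-like and T-like cells, and *Sirpa* stays high in osteoclast-like cells.

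Outside monocytes and macrophages the 7 genes parted. Osteoclast-like cells, which numbered 130, kept *Sirpa* at 424 CPM and *Pirb* at 148 CPM, both pooled over tumors, and held 2 UMIs of *Sirpb1c* and none of *Sirpb1a*, *Sirpb1b* or *Gm5150*, where a count of 0 allows up to 2.11 CPM. Most of these cells came from saline replicate 3 (69 cells) and free R848 replicate 2 (44 cells), and the medium R848-BPD tumors held 2 and 4. In cDC1-like cells (68 cells) *Pirb* was at 136 CPM and *Sirpa* at 16.0 CPM. No UMI of *Sirpb1a*, *Sirpb1c* or *Gm5150* was read there, which allows up to 8.00 CPM. *Lilrb4* was at 112 ± 39.1 CPM in NK-like and 78.5 ± 27.3 CPM in T-like cells (8 tumors each), against 5.72 ± 2.63 CPM in MC38-like cells. In NK-like cells *Pirb* (3.53 ± 3.52 CPM) and *Sirpa* (4.36 ± 4.67 CPM) lay at or under their levels in MC38-like cells. The floors cover counting error only, and the SDs are the spread between tumors.

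Monocyte-like cells carried more of most members than macrophage-like cells of the same tumors. Tested by edgeR's quasi-likelihood test with tumor as a block, 4 of 7 members were higher in monocyte-like cells (22.5% of 8508 tested genes were) and 1 was lower (21.2% of genes were). *Sirpb1b* had the largest difference, a log2 fold change of 0.91 ± 0.16 (SE, adjusted p = 0.000154), higher in 8 of 8 tumors. *Lilrb4* was higher in 8 of 8 tumors as well, by 0.76 ± 0.09 (adjusted p = 1.81e-06). *Pirb* was higher in 7 of 8 tumors by 0.59 ± 0.10 (adjusted p = 7.88e-05), and *Sirpb1c* in 6 of 8 by 0.51 ± 0.12 (adjusted p = 0.00243). *Sirpa* ran the other way, lower in all 8 tumors, with a log2 fold change of -0.32 ± 0.10 (adjusted p = 0.00998). *Sirpb1a* (0.08 ± 0.19, adjusted p = 0.755) and *Gm5150* (0.28 ± 0.17, adjusted p = 0.198) did not pass the test. With clusters in place of gates *Gm5150* did (0.81, adjusted p = 0.0135).

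Of 7 members, 6 were lower in dendritic-cell-like (DC-like) than in macrophage-like cells, where 21.5% of 8510 genes were lower. *Gm5150* differed most, with a log2 fold change of -3.26 ± 0.43 (adjusted p = 2.07e-05), from 25.8 ± 14.9 CPM in macrophage-like cells to 2.53 ± 4.23 CPM in DC-like cells before TMM scaling. *Sirpb1c* (-2.09 ± 0.28, adjusted p = 2.49e-05), *Sirpa* (-1.66 ± 0.13, adjusted p = 6.83e-08) and *Sirpb1a* (-1.61 ± 0.39, adjusted p = 0.0039) followed, each lower in 8 of 8 tumors. *Lilrb4* was lower by the same test (-1.15 ± 0.18, adjusted p = 0.000113), and so was *Sirpb1b* (-1.18 ± 0.38, adjusted p = 0.0203), whose call was lost without medium R848-BPD replicate 1 (adjusted p = 0.0763). *Pirb* was at 297 ± 84.1 CPM in DC-like cells and did not pass the test (-0.19 ± 0.17, adjusted p = 0.398). That difference pools treatments. With saline, *Pirb* was at 236 ± 31.9 CPM in DC-like and 212 ± 35.9 CPM in macrophage-like cells on the TMM scale (n = 3), and with medium R848-BPD at 274 and 470 CPM against 753 and 910 CPM. In neutrophil-like cells, of which only the 5 treated tumors held at least 10, *Lilrb4* was 1.49 ± 0.21 higher on the log2 scale than in macrophage-like cells (adjusted p = 1.36e-10), higher in 5 of 5 tumors and the only member called, where 10.2% of genes were higher. *Sirpa* was also called, lower, by DESeq2 (-0.54, adjusted p = 0.0423), with no count filter (-0.71, adjusted p = 0.0195) and with clusters in place of gates (-0.57, adjusted p = 0.0248). Macrophage markers summed to 2840 to 15232 CPM and neutrophil markers to 13071 to 25054 CPM in these neutrophil-like sums, with the macrophage markers above the neutrophil markers in free R848 replicate 2. Their part in the result was not tested.

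The members did not move alike with treatment within the monocyte/macrophage-like class. The SIRPβ-type genes and *Pirb* were highest with medium R848-BPD, and *Sirpa* and *Lilrb4* were not raised. *Pirb* was read at 210, 237 and 248 CPM in saline tumors, at 434, 336 and 411 CPM with free R848, and at 773 and 891 CPM with medium R848-BPD. *Gm5150* was at 12.0, 13.0 and 12.1 CPM with saline, 26.6, 21.0 and 32.8 CPM with free R848, and 48.9 and 44.3 CPM with medium R848-BPD. *Sirpb1c* was at 43.4, 37.6 and 42.7 CPM, then 71.8, 66.0 and 74.5 CPM, then 111 and 91.9 CPM in the same order. In all 3 genes every tumor of a treatment lay above every tumor of the one before it, with no overlap.

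*Sirpb1b* kept that order more narrowly, at 12.9, 12.4 and 14.4 CPM with saline, 25.1, 19.9 and 26.5 CPM with free R848, and 27.9 and 30.4 CPM with medium R848-BPD. *Sirpb1a* was at 14.9, 31.3 and 10.6 CPM with saline, 38.0, 27.8 and 29.7 CPM with free R848, and 51.2 and 45.1 CPM with medium R848-BPD. Its saline and free R848 tumors overlapped through saline replicate 2, the tumor with few monocyte-like cells. In macrophage-like cells alone, *Sirpb1a* was also highest there, at 32.4 CPM against 14.4 and 6.54 CPM in the other saline tumors. So 4 of 7 members followed the order saline, free R848, medium R848-BPD without overlap, as 1.86% of all tested genes did, and since the members were chosen with free R848 in view this count is a description. The lean of *Sirpb1c* and *Gm5150* toward free R848, which was known when the genes were chosen, is seen against saline in this class, where both were higher with medium R848-BPD than with free R848. In neutrophil-like cells the means ran the other way, with overlap. *Gm5150* was at 56.1, 33.9 and 45.8 CPM there with free R848 and 42.8 and 24.3 CPM with medium R848-BPD. *Sirpb1c* was at 18.7, 102 and 53.4 CPM with free R848 and 42.8 and 48.5 CPM with medium R848-BPD. These sums came from 10 to 35 cells a tumor, and saline tumors held too few neutrophil-like cells to be summed. Mature DC markers in them were at 138 to 213 CPM with free R848 and 1190 to 2481 CPM with medium R848-BPD. T-cell markers were at 0 to 17.7 and 84.5 to 167 CPM. Markers common to monocytes and macrophages were at 8336 to 13584 and 5974 to 6050 CPM. The part of these markers was not tested.

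**Figure D2:**
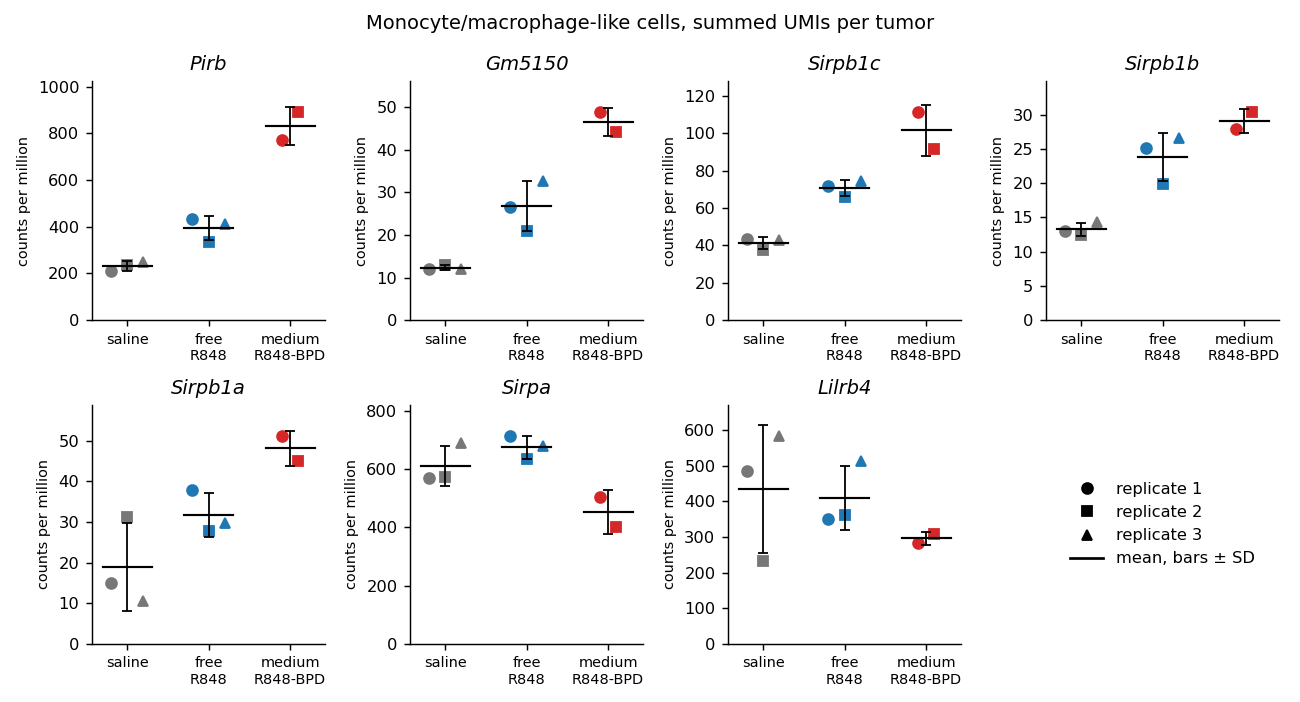
CPM (y axis, from 0, a separate scale for each gene) in the summed monocyte/macrophage-like cells of each tumor by treatment (x axis); points are tumors, lines are means and bars are SDs. *Pirb*, *Gm5150*, *Sirpb1c* and *Sirpb1b* step up from saline through free R848 to medium R848-BPD without overlap, and *Sirpa* is lowest with medium R848-BPD.

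The inhibitory receptors *Sirpa* and *Lilrb4* showed no such rise. *Sirpa* was at 571, 574 and 692 CPM with saline, 715, 635 and 679 CPM with free R848, and 506 and 400 CPM with medium R848-BPD. Both medium R848-BPD tumors lay under all others. *Lilrb4* was at 485, 233 and 584 CPM with saline, 351, 362 and 514 CPM with free R848, and 284 and 309 CPM with medium R848-BPD. Its saline and free R848 tumors overlapped, and saline replicate 2 was the lowest tumor of all.

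Medium R848-BPD against saline is the treatment contrast that the choice of members did not name. It uses the same medium R848-BPD tumors as the contrast with free R848, and the same saline tumors as free R848 against saline. In any class, its tests of *Sirpb1c* and *Gm5150*, and counts that include them, are therefore not independent of the choice. In monocyte/macrophage-like cells 4 of 7 members rose, all tested, where 3.63% of 10572 genes rose, and none fell, where 3.51% did. Mature DC markers in these sums were at 308 to 310 CPM with saline and 218 to 253 CPM with medium R848-BPD. Fibroblast markers were at 8.81 to 21.0 and 22.4 to 34.1 CPM. Monocyte markers were at 1200 to 3793 CPM with saline, 3415 to 4453 with free R848 and 1988 to 2194 with medium R848-BPD. The part of these markers was not tested. *Gm5150* rose 3.76-fold, from 12.4 ± 0.544 CPM (SD, n = 3) to 46.6 ± 3.24 CPM (n = 2), a log2 fold change of 1.91 ± 0.19 (SE, adjusted p = 0.00155). *Pirb* rose 3.59-fold, from 232 ± 19.8 to 832 ± 83.2 CPM, or 1.84 ± 0.16 on the log2 scale (adjusted p = 0.000645). *Sirpb1c* rose 2.48-fold, from 41.2 ± 3.17 to 102 ± 13.8 CPM (1.31 ± 0.13, adjusted p = 0.00155). *Sirpb1b* rose 2.21-fold, from 13.2 ± 1.02 to 29.1 ± 1.75 CPM (1.14 ± 0.18, adjusted p = 0.00913). Without medium R848-BPD replicate 2 the call of *Sirpb1b* was lost (adjusted p = 0.0875).

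*Sirpb1a*, at 18.9 ± 11.0 CPM with saline and 48.2 ± 4.32 CPM with medium R848-BPD, had a log2 fold change of 1.29 ± 0.36 and did not pass the test (adjusted p = 0.0645). It passed with all tumors by DESeq2 (1.32, adjusted p = 0.014) and with no count filter (adjusted p = 4.1e-08), and by edgeR without saline replicate 2 (1.90, adjusted p = 0.0012). *Sirpa* had a log2 fold change of -0.43 ± 0.16 (adjusted p = 0.139) and *Lilrb4* of -0.55 ± 0.34 (adjusted p = 0.357), and neither passed the test. Without saline replicate 2, *Lilrb4* fell by 0.85 on the log2 scale (adjusted p = 0.0238). Over the 7 members the median log2 fold change was 1.29, and over all tested genes it was -0.01. All medium R848-BPD tumors lay above all saline tumors for 5 of 7 members (20.8% of genes) and below them for 1, *Sirpa* (20.5% of genes).

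Because reads of *Sirpb1a*, *Sirpb1b* and *Sirpb1c* may be exchanged, their CPM were also summed. *Gm5150*, which shared no window with another gene, was included only as a neighbor in the same cluster. The sum was 85.7 ± 7.60 CPM with saline (SD, n = 3), 153 ± 16.1 CPM with free R848 (n = 3) and 226 ± 19.6 CPM with medium R848-BPD (n = 2). It did not overlap between treatments, and in saline replicate 2, where *Sirpb1a* was high, it was 94.3 CPM.

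In the contrasts that involve free R848 the members have values and no test. Against saline, free R848 had log2 fold changes of 1.1 ± 0.18 for *Gm5150*, 0.85 ± 0.16 for *Sirpb1b*, 0.78 ± 0.12 for *Sirpb1c*, 0.76 ± 0.14 for *Pirb* and 0.69 ± 0.33 for *Sirpb1a*, with 0.14 ± 0.14 for *Sirpa* and -0.09 ± 0.30 for *Lilrb4*. Without saline replicate 2 the value of *Sirpb1a* was 1.29. Of all 10572 genes 0.0189% were called in this contrast, 2 genes. DESeq2 called 43, and 1264 genes had an unadjusted p under 0.05. All free R848 tumors lay above all saline tumors for 4 of 7 members, where 9.46% of genes did. The members were chosen with free R848 in view, so this count is a description. From free R848 to medium R848-BPD the log2 fold changes were 1.08 ± 0.16 for *Pirb*, 0.82 ± 0.19 for *Gm5150*, 0.60 ± 0.36 for *Sirpb1a*, 0.53 ± 0.13 for *Sirpb1c* and 0.29 ± 0.18 for *Sirpb1b*, with -0.58 ± 0.16 for *Sirpa* and -0.46 ± 0.34 for *Lilrb4* (1.6% of genes called). Both contrasts share the free R848 tumors with each other, and each shares a group with the contrast of medium R848-BPD against saline.

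Within macrophage-like cells 4 of 7 members rose with medium R848-BPD against saline, where 4.34% of 10242 genes rose. The cluster that held the most macrophage-like cells differed between treatments, with 21.8% of them in saline, 24.7% in free R848 and 27.7% in medium R848-BPD tumors. *Gm5150* changed by 2.07 ± 0.19 on the log2 scale (adjusted p = 0.000588), *Pirb* by 1.97 ± 0.18 (adjusted p = 0.000588), *Sirpb1c* by 1.46 ± 0.13 (adjusted p = 0.000744) and *Sirpb1b* by 1.36 ± 0.19 (adjusted p = 0.00501). *Sirpb1a* did not pass by edgeR (adjusted p = 0.0809). It passed by DESeq2 (1.46, adjusted p = 0.0232), and by edgeR with no count filter (1.38, adjusted p = 6.09e-09) or without saline replicate 2 (2.20, adjusted p = 0.003). *Pirb* was at 172, 240 and 224 CPM in the macrophage-like cells of saline tumors. It was at 401, 335 and 373 CPM with free R848, and at 753 and 910 CPM with medium R848-BPD. Macrophage markers summed to 23688 to 26678 CPM with saline and 18764 to 21444 CPM with medium R848-BPD in these sums. Mature DC markers went from 309 to 332 CPM down to 188 to 256 CPM. Neutrophil markers went from 110 to 178 CPM down to 91.9 to 92.2 CPM. Fibroblast markers went from 7.53 to 21.4 CPM up to 22.5 to 36.2 CPM. The part of these differences in the result was not tested.

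Within monocyte-like cells 3 of 7 members rose, where 5.77% of 7215 genes did, and 1 fell, where 8.11% did. *Pirb* was at 307, 317 and 310 CPM with saline and 504, 360 and 497 CPM with free R848. With medium R848-BPD it was at 998 and 861 CPM. Its log2 fold change against saline was 1.58 ± 0.18 (adjusted p = 8.57e-06), called under each of the 17 alternatives run. Clusters in place of gates gave no value here and are not among them. *Gm5150* (1.31 ± 0.41, adjusted p = 0.0416) and *Sirpb1c* (0.82 ± 0.24, adjusted p = 0.0288) rose, but by DESeq2 neither passed (adjusted p = 0.158 and 0.142), and with no count filter *Sirpb1c* did not (adjusted p = 0.0592). *Lilrb4* fell by 0.81 ± 0.24 on the log2 scale (adjusted p = 0.0265), from 608 ± 193 CPM to 355 ± 35.0 CPM, and saline replicate 2 (394 CPM) was the saline tumor nearest to the medium R848-BPD tumors. Leaving out 1 of 5 tumors ended the call of *Gm5150* for each of the 5, and of *Lilrb4* and *Sirpb1c* for 4 of the 5, with saline replicate 2 the exception. Without either medium R848-BPD tumor, adjusted p for *Lilrb4* was 0.118 and 0.196. By edgeR with a replicate block *Lilrb4* did not pass (-0.60, adjusted p = 0.0615). *Sirpb1a* (1.07 ± 0.35, adjusted p = 0.0505), *Sirpb1b* (0.61 ± 0.33, adjusted p = 0.247) and *Sirpa* (-0.13 ± 0.22, adjusted p = 0.754) did not pass.

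Monocyte markers summed to 8053 to 9225 CPM in the monocyte-like cells of saline tumors and 5010 to 6234 CPM in those of medium R848-BPD tumors. Markers common to monocytes and macrophages went from 12466 to 13631 CPM with saline down to 6698 to 7335 CPM with medium R848-BPD in the same sums, and neutrophil markers from 467 to 512 CPM down to 279 to 309 CPM. Macrophage markers summed to 3641 to 5971 CPM with saline and 4897 to 5885 CPM with medium R848-BPD. The part of all these markers in the results was not tested. When the gate gene *Hp* was left out, an alternative chosen after seeing the data, *Sirpb1a* passed as well (1.25, adjusted p = 0.022).

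The difference between the changes in monocyte-like and macrophage-like cells was tested directly. None of the 7 members was called by edgeR's quasi-likelihood test, where 4.19% of 9581 genes were. An unadjusted p under 0.05 was given to 2 of the 7, and DESeq2 called none of the 4 members to which it gave an adjusted p. The nearest was *Sirpb1c*, with a difference of -0.67 ± 0.28 on the log2 scale (adjusted p = 0.207), followed by *Pirb* (-0.43 ± 0.21, adjusted p = 0.282). The log2 fold changes of *Pirb*, *Gm5150*, *Sirpb1c* and *Sirpb1b* were smaller in monocyte-like cells, but no member was shown to respond differently in the classes. The plot of changes by class shows both.

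**Figure D3:**
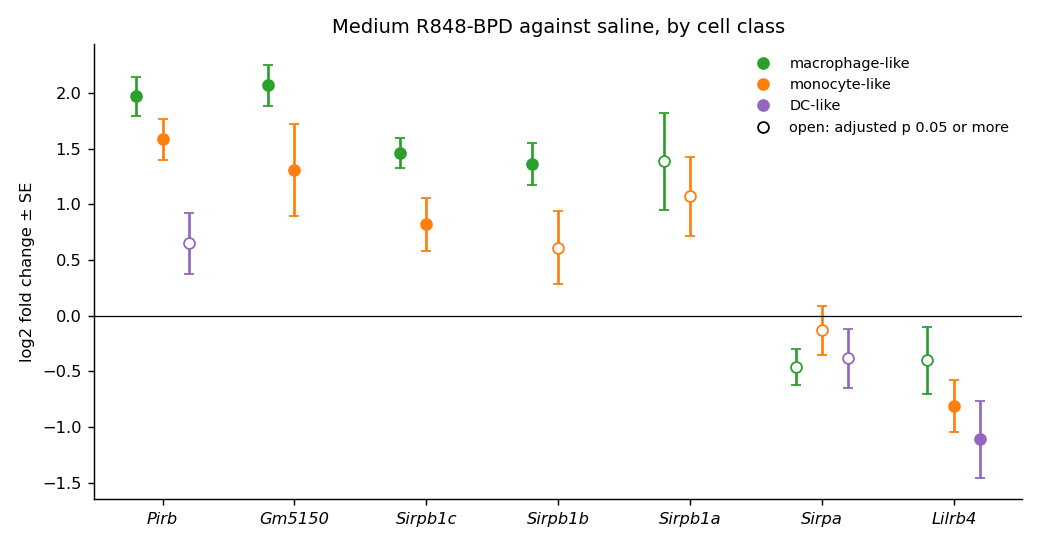
Log2 fold change of medium R848-BPD against saline (y axis, bars ± SE) for each gene (x axis) in macrophage-like, monocyte-like and DC-like cells; filled points have an adjusted p under 0.05 and genes not drawn for DC-like cells did not pass the count filter. *Pirb* and *Gm5150* reach about 2 in macrophage-like cells, and *Lilrb4* is below 0 in all 3 classes.

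In DC-like cells *Lilrb4* fell. Only *Pirb*, *Sirpa* and *Lilrb4* had counts enough to be tested there. *Lilrb4* was at 173, 140 and 180 CPM with saline and 256, 151 and 131 CPM with free R848. With medium R848-BPD it was at 56.7 and 109 CPM, under all other tumors. Its log2 fold change against saline was -1.11 ± 0.35 (adjusted p = 0.0411, with 8.33% of 5260 genes lower), and without medium R848-BPD replicate 1 it was -0.62 (adjusted p = 0.473). The call was also lost by DESeq2 (adjusted p = 0.0968), under the replicate block, and by edgeR without saline replicate 1 (adjusted p = 0.145), saline replicate 3 (adjusted p = 0.105) or free R848 replicate 2 (adjusted p = 0.0547). *Pirb* (0.65 ± 0.27, adjusted p = 0.125) and *Sirpa* (-0.38 ± 0.26, adjusted p = 0.361) did not pass, although *Sirpa* did with clusters in place of gates (-0.99, adjusted p = 0.0111). Markers of other myeloid cells moved with it in the DC-like sums, and their part was not tested. Markers common to monocytes and macrophages summed to 2745, 4121 and 1458 CPM with saline, 4095, 1305 and 1006 CPM with free R848, and 953 and 1158 CPM with medium R848-BPD. Neutrophil markers summed to 821 to 1916 CPM with saline and 309 to 351 CPM with medium R848-BPD, while macrophage markers ranged from 446 to 3189 CPM with saline and from 1446 to 2103 CPM with medium R848-BPD. The makeup of the class also moved with treatment. Mature DC-like cells numbered 74 in saline and 142 in medium R848-BPD tumors, and cDC2-like cells 123 and 12. Mature DC-like cells alone were an alternative chosen after seeing this. There *Lilrb4* was at 134 and 118 CPM in the 2 saline tumors with enough cells. With medium R848-BPD it was at 41.6 and 55.8 CPM (-1.45 ± 0.40, adjusted p = 0.0503 by edgeR). *Pirb* had a log2 fold change of 0.01 ± 0.28 there (adjusted p = 0.998). Neutrophil markers summed to 876 and 1143 CPM in those 2 saline tumors, through 1 detected marker of 8 in each, and to 201 and 230 CPM with medium R848-BPD, and their part was not tested.

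The shares of cells with a UMI followed the levels. After each monocyte/macrophage-like cell was thinned to 1000 UMIs, which left out 28 cells, *Pirb* was read in 19.9 ± 2.23% of cells with saline (SD, n = 3), 30.1 ± 3.15% with free R848 (n = 3) and 54.8 ± 0.0855% with medium R848-BPD (n = 2). Without thinning the shares were 60.6, 77.9 and 94.0%. In MC38-like cells thinned the same way *Pirb* was read in 0.135% of cells with saline and 0.467% with medium R848-BPD. *Gm5150* was read in 1.46 ± 0.113, 2.57 ± 0.224 and 4.21 ± 0.786% of cells in the same order of treatments, and *Sirpb1c* in 3.90 ± 1.1, 6.53 ± 0.527 and 8.34 ± 1.84%. Unthinned, *Gm5150* was read in 6.53, 13.6 and 23.1% and *Sirpb1c* in 18.8, 31.1 and 37.5%. In MC38-like cells of medium R848-BPD tumors *Gm5150* reached 0.704% and *Sirpb1c* 0.115%.

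*Sirpa* was read in 42.6 ± 4.27, 45.8 ± 1.06 and 33.0 ± 5.62% of cells, and *Lilrb4* in 33.4 ± 11.7, 32.9 ± 5.13 and 22.5 ± 1.64%. Medium R848-BPD exceeded saline by 34.9 percentage points for *Pirb*, 4.44 for *Sirpb1c*, 2.75 for *Gm5150* and 1.54 for *Sirpb1b*, each at p = 0.1 by a two-sided exact permutation test, the smallest that 2 against 3 tumors allow. The differences for *Sirpb1a* (2.15 points, p = 0.2), *Sirpa* (-9.61 points, p = 0.2) and *Lilrb4* (-10.9 points, p = 0.4) were tested by the same exact permutation test.

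**Figure D4:**
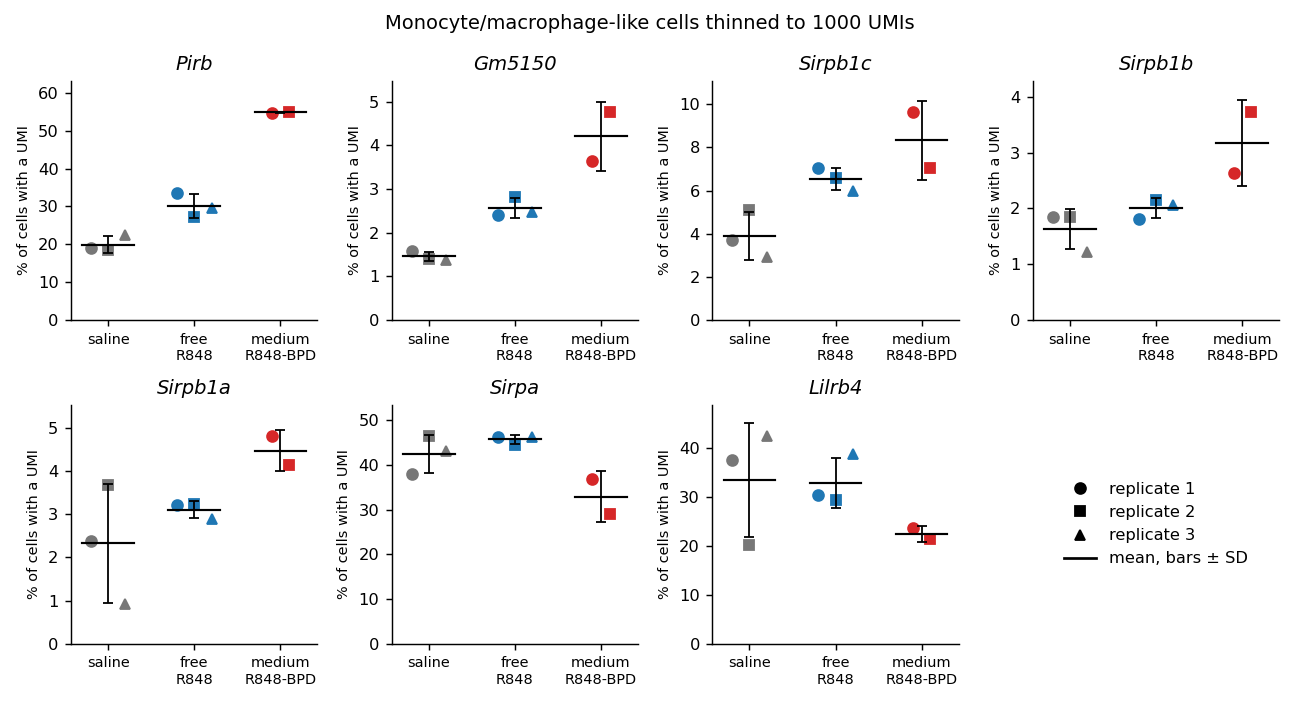
Share, in percent, of monocyte/macrophage-like cells in which each gene was read after thinning to 1000 UMIs (y axis, from 0) by treatment (x axis); points are tumors, lines are means and bars are SDs. *Pirb* rises from about 20% of cells with saline to 55% with medium R848-BPD.

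The partners of these receptors were called at about the rate of all genes in monocyte/macrophage-like cells. Of 13 adaptor and signaling genes, all tested, 1 rose and none fell with medium R848-BPD against saline (7.14% of all genes were called in either direction), with a median log2 fold change of 0.00 against -0.01 over all genes. The one that rose was *Dok1*, a docking protein of inhibitory signaling, from 49.3 ± 1.88 to 80.3 ± 12.9 CPM (0.69 ± 0.13, adjusted p = 0.0194). *Tyrobp*, the adaptor of SIRPβ-type receptors, was at 1090 ± 40.6 CPM with saline, 1000 ± 82.1 CPM with free R848 and 778 ± 21.8 CPM with medium R848-BPD (-0.49 ± 0.14, adjusted p = 0.067). *Fcer1g* was at 2163 ± 730 and 2066 ± 118 CPM with saline and medium R848-BPD (-0.07 ± 0.25, adjusted p = 0.903), and the phosphatase gene *Ptpn6* at 645 ± 139 and 683 ± 113 CPM (0.08 ± 0.22, adjusted p = 0.86). None of the 13 was called in either contrast with free R848, where 0.0189% (against saline) and 1.6% (against medium R848-BPD) of all genes were.

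The tables held 10 ligand genes, of which 9 were tested, and 1 fell, where 3.51% of all genes fell. *Angptl2*, a secreted ligand of *Pirb*-type receptors, went from 38.8 ± 19.8 CPM with saline to 4.83 ± 3.93 CPM with medium R848-BPD (-2.81 ± 0.61, adjusted p = 0.0304). *Cd47*, the ligand of *Sirpa*, was at 452 ± 18.9 and 524 ± 24.2 CPM (0.21 ± 0.13, adjusted p = 0.343). The MHC class I genes *B2m* (0.27 ± 0.16, adjusted p = 0.335) and *H2-K1* (0.55 ± 0.17, adjusted p = 0.0861) did not pass. The median of the 9 was 0.16. None of the 9 was called in either contrast with free R848, at the same shares over all genes.

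The closest relatives of the members were mostly read at low levels. Of the genes listed 7 were in the tables, and none of the 7 was called in any treatment contrast, where 7.14% of all genes were called between medium R848-BPD and saline. Whether they differed from the members was not tested. *Gp49a* was at 249 ± 112 CPM with saline, 280 ± 43.7 with free R848 and 220 ± 48.0 with medium R848-BPD (-0.18 ± 0.35 against saline, adjusted p = 0.796). *Lilra6* was at 9.29 ± 3.82, 18.3 ± 1.39 and 7.77 ± 0.540 CPM, highest with free R848 (1.03 ± 0.30 against saline, adjusted p = 0.292). *Pira2* stood at 9.93 ± 1.63, 19.2 ± 7.71 and 12.9 ± 1.41 CPM, *Gm15448* at 4.62 ± 1.97, 9.07 ± 3.18 and 6.55 ± 2.34 CPM, and *Gm14548* at 7.54 ± 2.14, 8.91 ± 1.08 and 5.41 ± 0.476 CPM. These are activating-type neighbors of *Pirb*, and their counts are uncertain because 95.8% of the 50-base windows of *Pira2* occur in another gene. *Lilra5* was at 6.86 ± 5.82, 9.28 ± 2.09 and 4.06 ± 3.99 CPM. *Gm9733*, the next gene of the chromosome 3 cluster, was at 4.72 ± 2.95, 6.44 ± 1.52 and 8.27 ± 2.22 CPM (0.81 ± 0.50 against saline, adjusted p = 0.352). Between classes, 5 of the 6 relatives tested were higher in monocyte-like than in macrophage-like cells (22.5% of all genes were), *Gm9733* by 2.59 ± 0.37 on the log2 scale (adjusted p = 1.67e-05).

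Other paired or inhibitory receptors moved both ways. The tables held 43, of which 38 were tested in monocyte/macrophage-like cells, and 7 rose and 3 fell with medium R848-BPD against saline, where 3.63% of all genes rose and 3.51% fell. Their median was 0.19. Among those that rose, *Slamf7* went from 123 ± 30.7 to 366 ± 63.1 CPM (1.57 ± 0.24, adjusted p = 0.00836), the inhibitory lectin *Clec4a2* from 173 ± 19.5 to 372 ± 60.4 CPM (1.1 ± 0.15, adjusted p = 0.0058) and its neighbor *Clec4a3* from 211 ± 45.2 to 525 ± 12.3 CPM (1.31 ± 0.18, adjusted p = 0.00587). Among those that fell, *Clec5a*, a *Tyrobp*-coupled activating lectin, went from 242 ± 62.4 to 44.8 ± 18.6 CPM (-2.40 ± 0.30, adjusted p = 0.00377). *Trem2*, also *Tyrobp*-coupled and one of the genes used to gate macrophages, had a log2 fold change of -1.13 ± 0.22 (adjusted p = 0.0223). *Havcr2* (TIM-3) fell from 216 ± 28.5 to 104 ± 11.8 CPM (-1.06 ± 0.18, adjusted p = 0.0123), and it was the only one of the 38 called against free R848, where 1.6% of all genes were (-1.18 ± 0.18, adjusted p = 0.021). None of the 38 was called between free R848 and saline, where 0.0189% of all genes were.

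**Figure D5:**
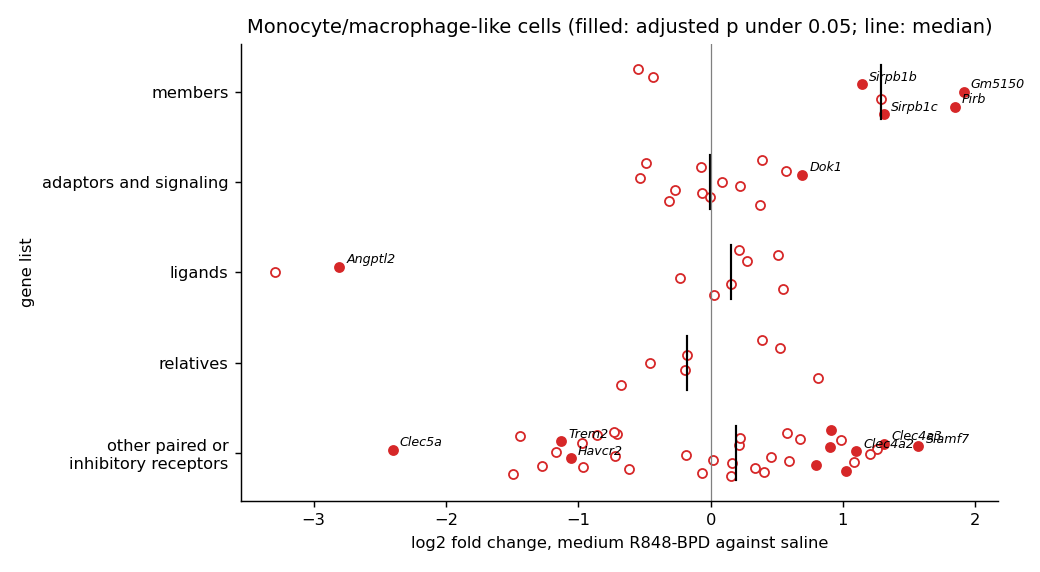
Log2 fold change of medium R848-BPD against saline in monocyte/macrophage-like cells (x axis) for the 7 members and the genes of 4 lists (y axis); each point is a gene, filled where adjusted p is under 0.05, and the line is the median of the list. The member median of 1.29 lies to the right of the medians of the other lists, which run from -0.18 to 0.19. The members were chosen with earlier results of these data known, so this is a description.

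Across 29 tumor-by-class sums of macrophage-like, monocyte-like, DC-like and neutrophil-like cells, which share tumors and differ in depth, the genes most like each member were named by Pearson's r of log2 CPM, as a description. *Gm5150* was most like *Plin2* (0.95), *Tlr13* (0.92) and *Fpr2* (0.92), and *Sirpb1c* most like *Fcgr1* (0.90), *Ms4a6d* (0.88) and *Fyb* (0.88). *Sirpb1a* was most like *Aoah* (0.86), *Gm5150* (0.84) and *Gde1* (0.82), and *Sirpb1b* most like *Rtp4* (0.90), *Trem3* (0.85) and *H2-T24* (0.85). *Pirb* was most like *Saa3* (0.89), *Cd38* (0.89) and *Pecam1* (0.85). *Lilrb4* was most like *Cd44* (0.93), *Cd14* (0.92) and *Gp49a* (0.90), with which it shares transcript windows. *Sirpa* was most like *Ctsa* (0.90), *Itgb5* (0.90) and *Clec12a* (0.90). *Fcgr1* and *Cd14* are among the genes used to gate these classes. Among members the highest value was that of *Gm5150* with *Sirpb1c* (0.85).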

How the data were processed

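Seq-Well single-cell RNA libraries of 8 MC38 tumors were analysed from the deposited tables of raw UMI counts per gene and cell, 1 table per tumor. Per the labels, the authors demultiplexed reads with bcl2fastq and used mm10. The aligner settings and annotation are not given in the sources used here. The members and gene lists were chosen with earlier results of these data known.

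Cells with over 400 and under 10000 genes, under 50000 UMIs and at most 15% mitochondrial UMIs were kept, as in the study. Classes were gated on marker scores, the mean of log-scaled UMI counts over each list of marker genes. Doublets called by Scrublet (67 cells, 0.678%) were kept, and removed in an alternative. UMIs were summed per tumor and class where a tumor held at least 10 cells. Treatments were compared by edgeR 4.0.16 (R 4.3.3; TMM, filterByExpr, quasi-likelihood test, all 8 tumors in one fit), classes with tumor as a block, with Benjamini-Hochberg adjustment over all tested genes and a threshold of 0.05. Each tumor is a separate mouse, and SEs are the log2 fold change divided by the square root of F. Fits were tested on simulated data. Shares of cells were compared after thinning to 1000 UMIs by exact permutation tests (scipy 1.17.1). Promoter stretches were aligned with mafft 7.526. Alternatives were DESeq2 1.42.0, RLE scaling, no count filter, only the 2 treatments compared, a replicate block, each tumor left out, clusters in place of gates (29 Leiden clusters, scanpy 1.11.5), at most 10% mitochondrial UMIs, doublets removed and, for shares, 2000 UMIs or no thinning. Added after seeing the data were the removal of barcodes found in several tumors, a monocyte gate without *Hp*, and mature DC-like cells alone. Named beside the members are *Tyrobp*, *Fcer1g*, *Ptpn6*, *Cd47*, *B2m*, *H2-K1*, each relative in the tables, for the other lists the 3 called genes with the largest change in each direction, and the 3 genes most like each member among those whose mean log2 CPM was 4 or more.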

Additional observations from a re-analysis of the deposited data

How the results depend on the processing

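With 2 or 3 tumors a group, counts of called genes in the treatment contrasts moved with single tumors, while the calls of *Pirb*, *Gm5150* and *Sirpb1c* in monocyte/macrophage-like and macrophage-like cells held under all 18 alternatives for medium R848-BPD against saline. Leaving out 1 tumor gave 100 (without medium R848-BPD replicate 2) to 1214 called genes (without saline replicate 2) in monocyte/macrophage-like cells in place of 755, 107 to 1021 in macrophage-like cells in place of 869, 461 to 1019 in monocyte-like cells in place of 1001 and 267 to 1046 in DC-like cells in place of 899. It gave 1 to 106 in place of 2 for free R848 against saline, 15 to 554 in place of 169 for medium R848-BPD against free R848, 915 to 1370 in place of 1404 for neutrophil-like against macrophage-like cells and 185 to 492 in place of 401 for the difference of the changes. Where 1 medium R848-BPD tumor was left, it was assumed to vary like the other groups. With no filter the counts were 1737 in monocyte/macrophage-like and 1817 in macrophage-like cells, 552 for free R848 against saline and 911 for medium R848-BPD against free R848. With only the 2 treatments compared they were 168, 164, 0 and 453 in that order. DESeq2 called 643 genes in monocyte-like cells, 539 in DC-like cells, 43 for free R848 against saline, 369 for medium R848-BPD against free R848 and 253 for the difference of the changes. The causes of these shifts were not tested. The titles number replicates alike across treatments, but same-numbered tumors did not deviate together (correlations of -0.25 to 0.22), and a replicate block gave 438 called genes in monocyte/macrophage-like and 546 in macrophage-like cells, 0 for free R848 against saline and 69 for medium R848-BPD against free R848. Under the block *Lilrb4* no longer passed in monocyte-like (adjusted p = 0.0615) or DC-like cells (adjusted p = 0.0717), and the block changed no other call of a member. Of the members' fold changes, 5 changed sign, none of them called: *Sirpa* for treatment in monocyte-like cells (0.073 without saline replicate 3 and 0.073 without medium R848-BPD replicate 2, in a range of -0.40 to 0.073 over the tumors left out), *Sirpb1a* in monocyte-like against macrophage-like cells (-0.076 without saline replicate 3, in a range of -0.076 to 0.14, and -0.045 with clusters in place of gates) and *Pirb* in neutrophil-like cells (-0.026 with no filter). Naming cells by cluster left no medium R848-BPD tumor with 10 monocyte-like cells, so that alternative gave no value for treatment in that class. The shares of cells rose with the number of UMIs kept, and the difference between medium R848-BPD and saline was 34.9 points at 1000 UMIs, 39.9 at 2000 and 33.4 unthinned for *Pirb*, and 2.75, 6.17 and 16.6 points for *Gm5150*, with its direction kept for all 7 members. The low counts of the SIRPβ-type genes in DC-like cells limit what could be tested there.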
